A study of Homo sapiens with 27 samples.

Results

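The 8 transcription factors of foregut and gut endoderm followed here in SHP77 cells were FOXA1, FOXA2, FOXA3, HNF4A, CDX2, PDX1, ONECUT2 and PROX1. The members were the rows whose Ensembl gene ID maps to these symbols. All 8 were found once in each table, among 41686 human genes of the shRNA table and 34742 of the siRNA table. SHP77 is an established human small cell lung cancer line. In the shRNA arm, cells carried a lentiviral shRNA against GFP (shGFP, the control, n = 2), circRMST shRNA 1 (n = 2) or circRMST shRNA 2 (n = 2), and all of them, controls included, had been selected with puromycin at 3 µg/ml for 3 days or more. circRMST is a circular RNA made from the long non-coding gene RMST. In the siRNA arm, cells were transfected for 72 hours with si-control (n = 3), SOX2 siRNA 1 or 2 (n = 2 each) or NKX2-1 siRNA 1 or 2 (n = 2 each). The shRNA arm was read as total RNA and the siRNA arm as poly(A) RNA. Every group is the same cell line. The design text calls the replicates biological without saying whether they were separate cultures, so p-values measure only how far these libraries scatter, some of which may be technical. The series also holds 10 ChIP-seq samples, which were not analysed here.

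The endoderm is the germ layer that forms the lining of the airways, stomach, intestine, liver and pancreas. FOXA1, FOXA2 and FOXA3 are forkhead factors that can bind closed chromatin and open it for other factors. HNF4A is a nuclear receptor of liver and intestine, CDX2 sets intestinal identity, PDX1 sets pancreatic and duodenal identity, ONECUT2 is a cut-homeodomain factor of liver and endocrine lineages, and PROX1 is a homeodomain factor of liver, pancreas and lymphatic vessels. SOX2 marks the anterior foregut and opposes CDX2 along the gut, and NKX2-1 marks the part of the foregut that forms lung and thyroid. In lung adenocarcinoma models, loss of NKX2-1 is known to bring out gastric genes, HNF4A among them.

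Library depth was 46.9 to 57.4 megareads (M) for shRNA and 15.5 to 50.1 M for siRNA libraries, where si-control held 15.5 to 17.9 M. SOX2 lay at 1084 to 1191 normalized counts in si-control and at 389 to 466 with the SOX2 siRNAs. NKX2-1 lay at 2145 to 2357 in si-control and at 796 to 1070 with the NKX2-1 siRNAs. The deposited row of RMST counts the gene and does not separate the circular RNA, so it is no check of the shRNAs. All 8 markers of small cell lung cancer were present in every group. Their summed level was 63089 to 67641 in shGFP and 32977 to 36469 in the circRMST knockdown libraries, and 71204 to 80074 over the siRNA arm. Blood and endothelial markers summed to 439 to 446 in shGFP and 167 to 215 in circRMST knockdown, mostly PECAM1. Fibroblast markers summed to 207 to 265 and 374 to 814. The rise was in LUM, at 110 ± 16.6 (SD, n = 2) in shGFP and 587 ± 217 (n = 4) in circRMST knockdown. Of the 3 fibroblast markers tested there, 1 rose and 2 fell, beside 27.8% and 25.9% of all genes. For siRNA libraries the blood and endothelial sum was 381 to 399 in si-control, 96.1 to 168 with the SOX2 siRNAs, 180 to 195 with NKX2-1 siRNA 1 and 475 to 507 with NKX2-1 siRNA 2, and the fibroblast sum was 84.9 to 116, 219 to 291, 67.01 to 95.7 and 114 to 115. LUM was at 75.7 ± 17.1 (SD, n = 3) in si-control and 210 ± 30.2 (n = 4) with the SOX2 siRNAs. The part of these cell markers in the results was not tested. In bulk RNA, fewer cells of a type and less RNA per cell cannot be told apart.

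Promoter sequence was available for 5 of the 8 factors, in 6 entries. The 3 shown are those of factors with an entry that changed in at least 2 of the 3 knockdowns: CDX2, FOXA1 and ONECUT2. FOXA2 and PROX1 also changed in 2 knockdowns, but they and PDX1 had no entry. Each is the 250 bases before the RefSeq start on GRCh38.p14, written 5′ to 3′ on the strand of the gene, with matches to 4 short motifs in capitals. CDX2 is at chr13:27969316-27969565 (minus strand), FOXA1 at chr14:37595250-37595499 (minus strand) and ONECUT2 at chr18:57435124-57435373 (plus strand).

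CDX2: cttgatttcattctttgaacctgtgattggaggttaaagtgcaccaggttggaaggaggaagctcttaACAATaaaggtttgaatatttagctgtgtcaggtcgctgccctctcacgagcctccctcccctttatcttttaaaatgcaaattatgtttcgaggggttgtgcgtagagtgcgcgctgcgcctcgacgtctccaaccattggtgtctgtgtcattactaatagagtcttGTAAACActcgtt
FOXA1: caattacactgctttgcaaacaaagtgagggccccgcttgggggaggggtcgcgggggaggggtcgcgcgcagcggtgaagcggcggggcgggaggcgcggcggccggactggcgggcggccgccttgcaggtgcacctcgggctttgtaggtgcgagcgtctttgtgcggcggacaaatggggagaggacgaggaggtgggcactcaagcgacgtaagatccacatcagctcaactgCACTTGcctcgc
ONECUT2: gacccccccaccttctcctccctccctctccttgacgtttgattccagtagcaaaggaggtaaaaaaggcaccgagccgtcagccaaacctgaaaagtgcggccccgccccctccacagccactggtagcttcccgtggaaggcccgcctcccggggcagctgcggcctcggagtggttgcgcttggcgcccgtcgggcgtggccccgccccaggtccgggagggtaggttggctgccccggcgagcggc

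The motifs were ACAAT for SOX factors, CACTTG for NKX2-1, GTAAACA for FOXA factors and CCATAAA for CDX factors, each read on both strands. The CDX2 promoter held ACAAT 182 bases before the start and GTAAACA 13 bases before it. The FOXA1 promoter held CACTTG 12 bases before the start. The ONECUT2 promoter held none of the 4 motifs. Over the 6 entries, ACAAT was in 2, CACTTG in 1, GTAAACA in 1 and CCATAAA in 0. Among all 35116 promoters of the same length, 24.6% held ACAAT, 9.50% CACTTG, 2.98% GTAAACA and 2.30% CCATAAA. A match describes the letters only and shows no binding.

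The 8 factors did not move as a block. A factor is said to have risen or fallen where limma, run over all genes on log2 values with 1 added to each normalized count, gave an adjusted p under 0.05. With circRMST knockdown, FOXA1 and ONECUT2 rose and FOXA2, PROX1 and CDX2 fell, out of 7 factors tested, where 27.8% of all 19068 genes tested rose and 25.9% fell. HNF4A was below the filter of a mean of 10 normalized counts in that table. With SOX2 knockdown, FOXA2 and ONECUT2 rose and CDX2 and FOXA3 fell, out of 8 tested, where 27.6% of all 16750 genes rose and 28.7% fell. With NKX2-1 knockdown, FOXA1, PDX1, PROX1 and HNF4A rose and CDX2 and ONECUT2 fell, out of 8 tested, where 18.5% of all genes rose and 21.4% fell. In either direction, 53.7%, 56.3% and 39.9% of all genes tested passed in the 3 comparisons, so a changed gene was common. The SOX2 and NKX2-1 knockdowns share their 3 si-control libraries. The median log2 fold change of the members was -0.17, 0.06 and 0.25 for circRMST, SOX2 and NKX2-1 knockdown, beside 0.0015, 0.0071 and -0.0043 over all genes tested.

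Taken reagent by reagent, FOXA1, FOXA2 and PROX1 were called the same way with both circRMST shRNAs. Of 7 factors, 3 passed with circRMST shRNA 1 (51% of all genes did) and 6 with shRNA 2 (47.4%). Of 8 factors, 6 passed with SOX2 siRNA 1 (53.1% of all genes) and 4 with siRNA 2 (49.1%), and FOXA2, FOXA3, CDX2 and ONECUT2 were called the same way with both. With NKX2-1 siRNA 1, 5 passed (39% of all genes), and 5 with siRNA 2 (33.5%), with FOXA1, HNF4A, PDX1 and PROX1 called upward with both. The reagents of a knockdown differed from each other for 3 factors each: PDX1, CDX2 and ONECUT2 between the circRMST shRNAs (19.1% of all genes differed), PROX1, CDX2 and FOXA1 between the SOX2 siRNAs (18.5%), and FOXA1, ONECUT2 and FOXA3 between the NKX2-1 siRNAs (26.5%).

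**Figure D1:**
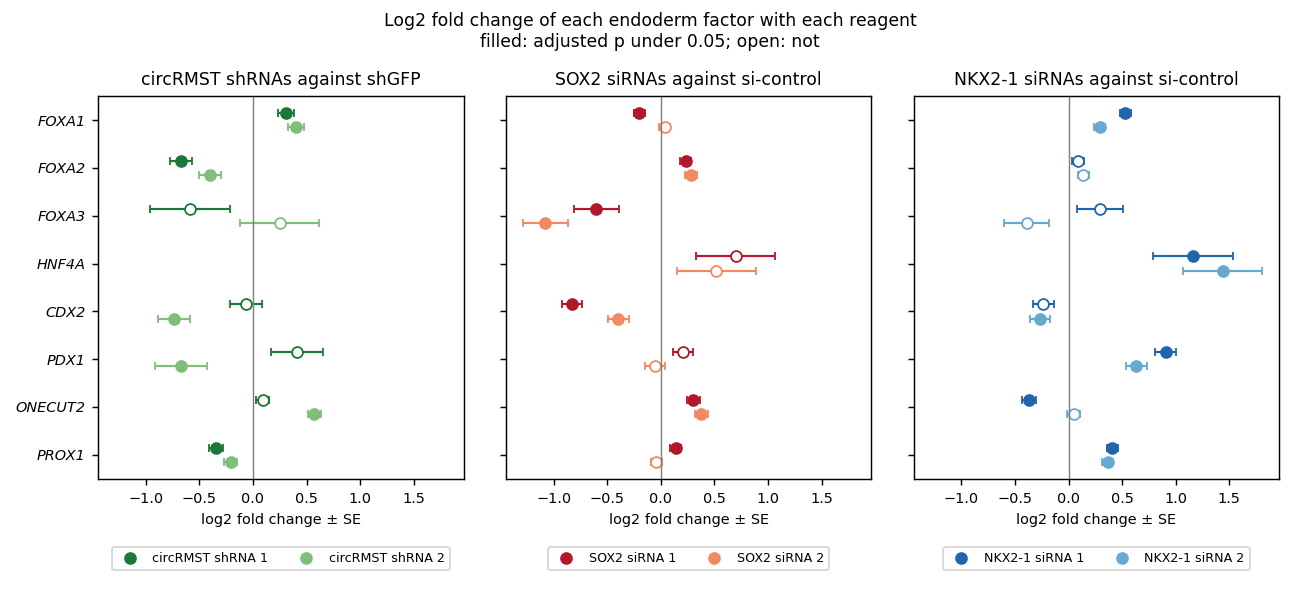
Log2 fold change (x axis, ± SE) of each factor (y axis) with each shRNA or siRNA against its own control; filled points had an adjusted p under 0.05. CDX2 lies left of 0 with all 6 reagents, while HNF4A lies furthest right with the NKX2-1 siRNAs, at 1.16 and 1.44. HNF4A was not tested in the shRNA arm.

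FOXA1 rose with circRMST knockdown and with NKX2-1 knockdown. In the shRNA arm its normalized counts were 1492 and 1616 in shGFP, 1875 and 1970 with circRMST shRNA 1, and 2050 and 2056 with circRMST shRNA 2. Every knockdown library lay above both controls, and the log2 fold change was 0.35 (SE 0.064, adjusted p 5.66e-05). In the siRNA arm FOXA1 stood at 1921, 1862 and 2008 in si-control, 2707 and 2867 with NKX2-1 siRNA 1, and 2330 and 2392 with NKX2-1 siRNA 2. The 4 NKX2-1 knockdown libraries lay above the controls, by 0.41 on the log2 scale (SE 0.043, adjusted p 1.21e-08), and the first siRNA gave the larger rise. With SOX2 siRNA 1 the values were 1757 and 1599 and with siRNA 2 they were 1940 and 2016. The first SOX2 siRNA lowered FOXA1 (log2 fold change -0.20, SE 0.051, adjusted p 0.00151), the second gave 0.04 (SE 0.051, adjusted p 0.598), and their average did not pass (-0.08, adjusted p 0.0993).

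FOXA2, which acts beside FOXA1 in foregut and liver, fell with circRMST knockdown and rose with SOX2 knockdown. It was at 894 and 1032 in shGFP, 601 and 603 with circRMST shRNA 1, and 726 and 728 with shRNA 2. No knockdown library reached the controls, and the log2 fold change was -0.54 (SE 0.086, adjusted p 1.31e-05). In the siRNA arm FOXA2 was at 2123, 2136 and 2231 in si-control, 2752 and 2343 with SOX2 siRNA 1, and 2671 and 2594 with SOX2 siRNA 2. All 4 SOX2 knockdown libraries exceeded the controls, by 0.26 (SE 0.046, adjusted p 2.82e-05). With the NKX2-1 siRNAs FOXA2 was at 2207 and 2392, then 2378 and 2387, which overlaps the controls, and the change of 0.11 (SE 0.046) just missed the threshold (adjusted p 0.0516). FOXA1 and FOXA2 therefore had opposite signs with circRMST knockdown.

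FOXA3, the FOXA factor best known from liver, was low throughout, at 22.5 to 52.7 normalized counts in the shRNA arm and 32.2 to 100 in the siRNA arm. It stood at 71.1, 75.6 and 94.4 in si-control, 55.5 and 49.3 with SOX2 siRNA 1, and 43.2 and 32.2 with SOX2 siRNA 2. All SOX2 knockdown libraries were below the controls, and FOXA3 fell by 0.84 on the log2 scale (SE 0.178, adjusted p 0.000228). With the NKX2-1 siRNAs the values split by reagent, 100 and 95.7 with the first and 74.4 and 49.4 with the second. The first siRNA lay above the controls and the second within or below them, so the average of -0.05 (adjusted p 0.851) describes neither. Against circRMST, FOXA3 was at 38.0 and 47.5 in shGFP, 34.6 and 22.5 with circRMST shRNA 1, and 48.7 and 52.7 with circRMST shRNA 2. The first shRNA lay below the controls (-0.59, SE 0.372, adjusted p 0.196) and the second above them (0.25, SE 0.372, adjusted p 0.615). Neither passed, nor did their difference (-0.84, adjusted p 0.125) or the average of -0.17 (SE 0.322, adjusted p 0.682).

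**Figure D2:**
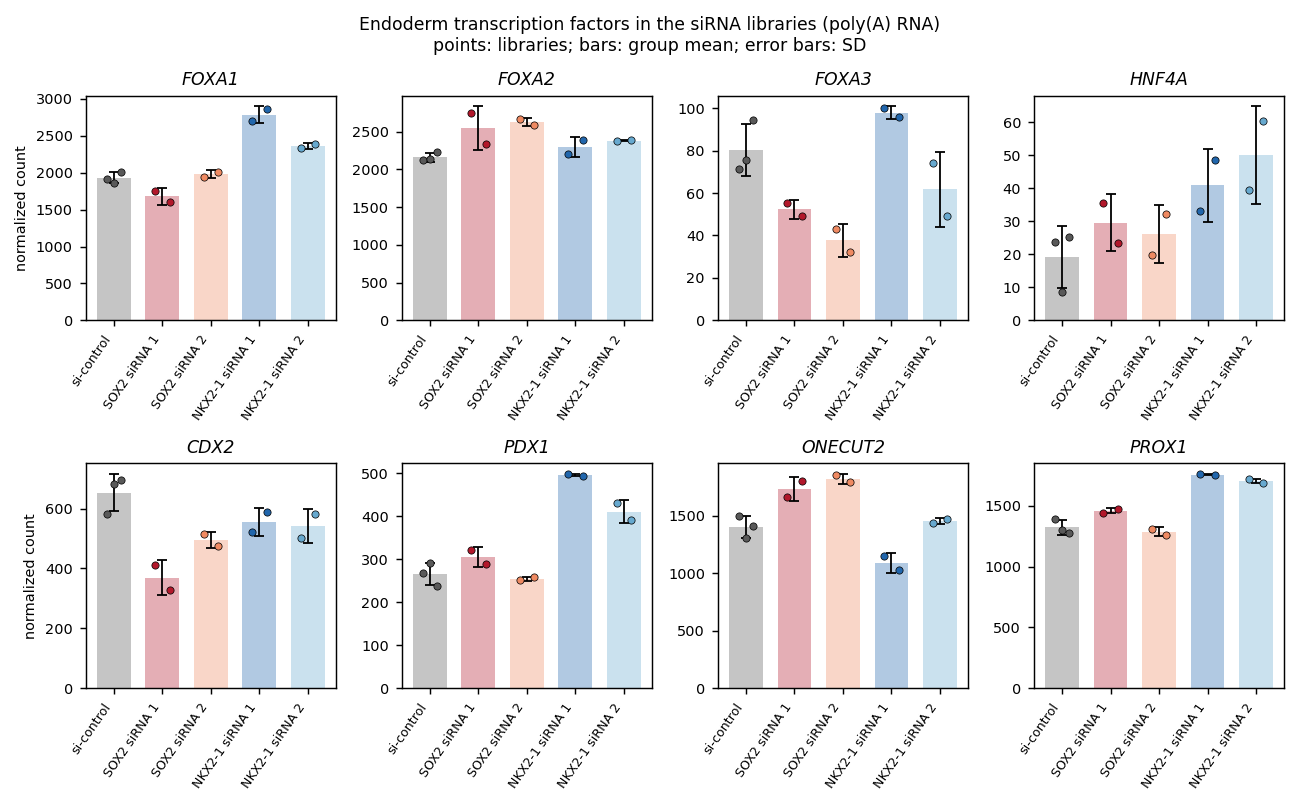
Normalized counts (y axis, from 0) of the 8 factors in the siRNA arm, with libraries as points, group means as bars and SD as error bars. CDX2 is lowest with SOX2 siRNA 1, at 328 and 410, and PDX1 is highest with NKX2-1 siRNA 1, at 494 and 497.

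HNF4A had the largest rise of the members with NKX2-1 knockdown, from a low level. It was at 23.7, 8.53 and 25.4 in si-control, 33.0 and 48.7 with NKX2-1 siRNA 1, and 39.5 and 60.5 with NKX2-1 siRNA 2. The 4 NKX2-1 knockdown libraries lay above the 3 controls, and the log2 fold change was 1.30 (SE 0.309, adjusted p 0.0013). With SOX2 knockdown HNF4A was at 35.6 and 23.4, then 19.9 and 32.2, which overlaps the controls (0.61, SE 0.309, adjusted p 0.096). Counts this low leave a wide error: with each library left out in turn, the value for NKX2-1 knockdown ranged from 0.83, without si-control replicate 2 (adjusted p 0.0265), to 1.56. HNF4A-AS1, a long non-coding RNA, overlaps HNF4A. The siRNA kit keeps no strand, so reads from where they overlap cannot be told apart. The row of HNF4A-AS1 held at most a mean of 0.58 in any siRNA group.

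In the shRNA arm HNF4A was at 22.6 and 20.9 in shGFP, 0 and 2.93 with circRMST shRNA 1, and 0.92 and 0 with circRMST shRNA 2. These are 44 reads over the controls and 4 reads over the 4 knockdown libraries. Fitted with no filter on low values, HNF4A gave a log2 fold change of -3.78 (SE 0.728, adjusted p 0.0104). The shGFP libraries also held more low-level reads in general. Among protein-coding genes, 1548 had no read in the siRNA arm but a read in at least 1 shRNA library. Of these, 82.4% and 85.6% carried at least 1 read in shGFP and 14.7% to 20.5% in the knockdown libraries. Genes silent in both arms are not in these shares. The excess of HNF4A in shGFP, 20.8 normalized counts, lay between the median excess of those genes, 4.03, and their 99th percentile, 38.7 (largest 271). FOXA2, PROX1 and CDX2 exceeded that percentile, with 298, 639 and 82.2. The part of these low-level reads in the HNF4A value was not tested.

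CDX2 fell in all 3 knockdowns, most with SOX2 knockdown. It was at 583, 684 and 695 in si-control, 410 and 328 with SOX2 siRNA 1, 515 and 475 with SOX2 siRNA 2, 521 and 589 with NKX2-1 siRNA 1, and 503 and 583 with NKX2-1 siRNA 2. The SOX2 knockdown libraries were all below the controls, and the log2 fold change was -0.61 (SE 0.081, adjusted p 2.76e-07). The NKX2-1 knockdown libraries overlapped the controls at the lowest control value, and the change of -0.25 (SE 0.081, adjusted p 0.0141) was lost without any of si-control replicates 2 and 3, NKX2-1 siRNA 1 replicate 1 or NKX2-1 siRNA 2 replicate 1 (adjusted p 0.0592 to 0.0961). Against circRMST, CDX2 was at 353 and 392 in shGFP, 398 and 318 with circRMST shRNA 1, and 216 and 230 with circRMST shRNA 2. Only the second shRNA lay apart from the controls (log2 fold change -0.74, SE 0.146, adjusted p 0.000225), while the first gave -0.07 (SE 0.146, adjusted p 0.739). The average of -0.40 (SE 0.126, adjusted p 0.01) did not pass without shGFP replicate 2 (adjusted p 0.134) or without circRMST shRNA 1 replicate 2 (adjusted p 0.0539).

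PDX1 rose with NKX2-1 knockdown. It was at 267, 290 and 238 in si-control, 497 and 494 with NKX2-1 siRNA 1, and 431 and 391 with NKX2-1 siRNA 2. The 4 libraries lay well above the controls, and the log2 fold change was 0.77 (SE 0.081, adjusted p 1.39e-08). With SOX2 knockdown PDX1 was at 322 and 290, then 251 and 258. Only the value of 322 lay outside the range of the controls, and the change did not pass (0.08, SE 0.081, adjusted p 0.443). The 2 circRMST shRNAs took PDX1 to opposite sides of the control. It was at 99.7 and 128 in shGFP, 133 and 170 with circRMST shRNA 1, and 61.6 and 80.6 with circRMST shRNA 2. The second shRNA gave a fall (-0.67, SE 0.242, adjusted p 0.0252), the first gave 0.41 (SE 0.242, adjusted p 0.166), and their difference of 1.08 passed (SE 0.242, adjusted p 0.00237).

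**Figure D3:**
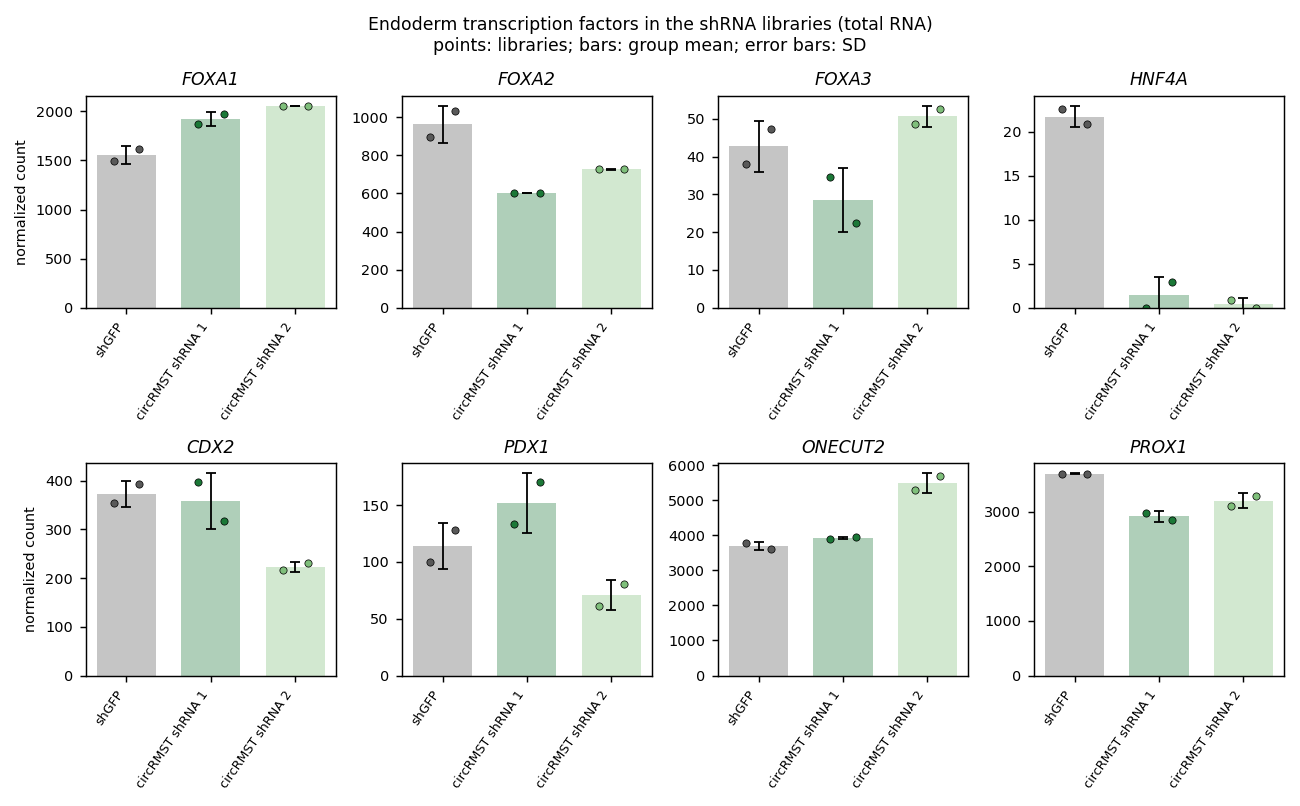
Normalized counts (y axis, from 0) of the 8 factors in the shRNA arm, with libraries as points, group means as bars and SD as error bars. FOXA2 and PROX1 are lower in all 4 knockdown libraries than in both shGFP libraries, and PDX1 and CDX2 are lowest with circRMST shRNA 2.

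PDX1 and CDX2 are neighbours on chromosome 13, 34.6 kb apart in the GRCh38.p14 annotation, and PLUT, a long non-coding RNA, ends 2.71 kb from PDX1. PLUT was at 284 ± 18.0 (SD, n = 2) in shGFP, 400 ± 38.5 with circRMST shRNA 1 and 187 ± 3.07 with circRMST shRNA 2. It rose with the first shRNA (0.49, SE 0.146, adjusted p 0.00734) and fell with the second (-0.60, SE 0.146, adjusted p 0.00166), the same signs as PDX1. With NKX2-1 knockdown PLUT rose by 0.58 (SE 0.080, adjusted p 1.43e-06), beside the 0.77 of PDX1. With SOX2 knockdown PLUT went from 308 ± 16.4 (n = 3) to 135 ± 2.06 and 181 ± 9.83 and fell by 0.97 on the log2 scale (SE 0.080, adjusted p 5.47e-11), while PDX1 did not pass. LINC00543, between PDX1 and CDX2, passed in none of the 3 knockdowns (adjusted p 0.0896 to 0.723).

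The gene next to FOXA1, TTC6, starts 0.38 kb away on chromosome 14. TTC6 rose with circRMST knockdown (0.60, SE 0.108, adjusted p 5.46e-05) and with NKX2-1 knockdown (0.42, SE 0.131, adjusted p 0.0127), as FOXA1 did, and gave -0.26 with SOX2 knockdown (adjusted p 0.0909). NKX2-1 itself lies on the same chromosome, 1069 kb from FOXA1. Next to FOXA2 is the long non-coding RNA LINC00261, 2.36 kb away, which fell with circRMST knockdown (-1.65, SE 0.471, adjusted p 0.00505) and rose with SOX2 knockdown (0.56, SE 0.230, adjusted p 0.0412), the signs of FOXA2. Its level of 48.7 ± 12.5 in shGFP and 16.0 ± 12.9 and 16.2 ± 3.40 (SD, n = 2 each) in the knockdowns differ by less than 38.7, the 99th percentile of the excess in shGFP of genes silent in the siRNA arm. PROX1-AS1, which overlaps PROX1, fell with circRMST knockdown (-2.11, SE 0.311, adjusted p 4.44e-06) and rose with NKX2-1 knockdown (0.82, SE 0.296, adjusted p 0.0278), the signs of PROX1. Over the alternatives run, the call was lost in 9 of 17 for LINC00261 with SOX2 knockdown, 7 of 17 for PROX1-AS1 with NKX2-1 knockdown and 5 of 18 for TTC6 with NKX2-1 knockdown. For LINC00261 with circRMST knockdown it was lost in 2 of 16. PROX1 and PROX1-AS1 overlap from 213983151 to 213986153 on chromosome 1. The siRNA kit keeps no strand, and whether counting used strand in the shRNA arm is not given. Reads from that overlap therefore cannot be told apart.

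Other neighbours matched the calls of the factor beside them only in part or not at all. FECH, the last enzyme of heme synthesis, lies 53.1 kb from ONECUT2. It rose with circRMST knockdown (1.23) and NKX2-1 knockdown (0.30) and fell with SOX2 knockdown (-0.38). ONECUT2 rose with circRMST and SOX2 knockdown and fell with NKX2-1 knockdown, so only the circRMST sign was shared. ST8SIA3, 66.4 kb from ONECUT2, rose with circRMST (0.25) and NKX2-1 knockdown (0.12) and gave 0.01 with SOX2 knockdown (adjusted p 0.857). It rose with circRMST shRNA 1 (0.44, adjusted p 0.000247) and gave 0.07 with shRNA 2 (adjusted p 0.538). ONECUT2 instead rose with shRNA 2 (0.57) and gave 0.09 with shRNA 1. MIPOL1, 37.2 kb from FOXA1, rose with circRMST knockdown (0.17), fell with SOX2 knockdown (-0.35) and gave 0.05 with NKX2-1 knockdown (adjusted p 0.549). These are the signs of FOXA1 (0.35, -0.08 and 0.41), but only the change with circRMST knockdown passed for both genes. For MIPOL1 that call was lost in 7 of 17 alternatives. Beside FOXA3, SYMPK at 1.18 kb and IRF2BP1 at 9.81 kb rose with circRMST knockdown (0.26 and 0.73). With SOX2 knockdown, which lowered FOXA3, SYMPK gave 0.0019 (adjusted p 0.974) and IRF2BP1 rose (0.17, adjusted p 0.0136).

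**Figure D4:**
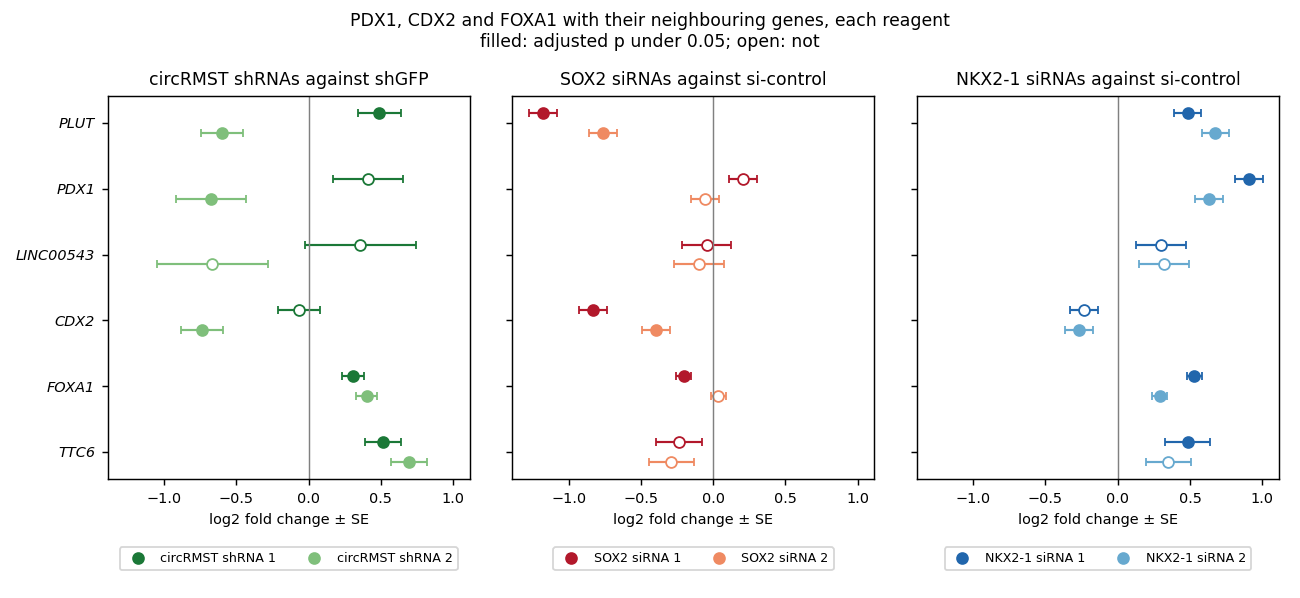
Log2 fold change (x axis, ± SE) of PDX1, CDX2 and FOXA1 and of 3 annotated neighbours (y axis) with each reagent against its control; filled points had an adjusted p under 0.05. PLUT and PDX1 lie on the same side of 0 with both circRMST shRNAs and both NKX2-1 siRNAs, and PLUT lies at -1.18 and -0.76 with the SOX2 siRNAs.

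ONECUT2 rose with circRMST and with SOX2 knockdown. It was at 1498, 1306 and 1407 in si-control, 1658 and 1804 with SOX2 siRNA 1, and 1849 and 1790 with SOX2 siRNA 2. All 4 SOX2 knockdown libraries exceeded the controls, by 0.34 (SE 0.051, adjusted p 2.44e-06). With NKX2-1 siRNA 1 ONECUT2 was at 1150 and 1023 and with siRNA 2 at 1432 and 1467, so only the first lowered it (-0.37, SE 0.061, adjusted p 2.03e-05, against 0.05, adjusted p 0.588). The average of -0.16 (adjusted p 0.014) did not pass without si-control replicate 1, NKX2-1 siRNA 1 replicate 2 or NKX2-1 siRNA 2 replicate 1 (adjusted p 0.0503 to 0.136). Among shRNA libraries ONECUT2 was at 3770 and 3612 in shGFP, 3898 and 3950 with circRMST shRNA 1, and 5284 and 5679 with circRMST shRNA 2. The second shRNA carried the rise (0.57, SE 0.061, adjusted p 6.11e-08), and the first gave 0.09 (SE 0.061, adjusted p 0.239).

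PROX1 fell with circRMST knockdown and rose with NKX2-1 knockdown. It was at 3696 and 3702 in shGFP, 2986 and 2850 with circRMST shRNA 1, and 3106 and 3297 with circRMST shRNA 2. Both shRNAs lowered it, and the average was -0.28 (SE 0.055, adjusted p 0.000196). In the siRNA arm PROX1 was at 1391, 1304 and 1276 in si-control, 1760 and 1752 with NKX2-1 siRNA 1, and 1718 and 1692 with NKX2-1 siRNA 2. The NKX2-1 knockdown libraries all lay above the controls, by 0.39 (SE 0.044, adjusted p 4.75e-08). With SOX2 siRNA 1 PROX1 was at 1444 and 1473, above the controls (0.14, SE 0.052, adjusted p 0.0252), and with siRNA 2 at 1313 and 1260, at or just below them (-0.04, adjusted p 0.551).

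Set directly against each other, with no control library in the contrast, the SOX2 and NKX2-1 knockdowns differed for all 8 factors in limma, where 27.9% of all genes were higher and 28% lower with SOX2 knockdown, 55.8% in all. ONECUT2 (0.50, SE 0.047, adjusted p 8.3e-10) and FOXA2 (0.14, SE 0.043, adjusted p 0.00545) were higher with SOX2 knockdown. PDX1 (-0.69, SE 0.075), FOXA1 (-0.49, SE 0.040), FOXA3 (-0.79, SE 0.165), CDX2 (-0.36, SE 0.075), PROX1 (-0.34, SE 0.041) and HNF4A (-0.69, SE 0.286, adjusted p 0.042) were lower. The HNF4A call was lost without any of 4 single libraries, SOX2 siRNA 1 replicate 2, SOX2 siRNA 2 replicate 1, NKX2-1 siRNA 1 replicate 2 and NKX2-1 siRNA 2 replicate 2, and also with no filter (adjusted p 0.160) and under quantile normalization (0.0993). The FOXA2 call was lost without SOX2 siRNA 1 replicate 1 (adjusted p 0.0535), under equal library totals (0.091, adjusted p 0.0750) and under quantile normalization (0.062, adjusted p 0.216). SOX2 itself rose with NKX2-1 knockdown (0.96, SE 0.051, adjusted p 1.43e-14).

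For the 7 factors whose mean reached 50 normalized counts, the genes most like them over the 11 siRNA libraries were taken from 12867 genes by Pearson r on the log2 scale. These libraries share groups and normalization, so the coefficients describe how group means follow each other. FOXA1 was closest to HOXB8 (r = 0.98), a homeobox gene. PDX1 was closest to WDR91 (r = 0.97) and PROX1 to NNT (r = 0.97), which was also the second for PDX1 (r = 0.97). FOXA2 was closest to HSPBP1 (r = 0.97), FOXA3 to DIRC3 (r = 0.96), CDX2 to SHC2 (r = 0.96) and ONECUT2 to EIF2B1 (r = 0.98). No member was among the 3 closest genes of another.

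Among other regulators of stomach and intestine, the epithelial factors KLF5 and ELF3 fell with SOX2 knockdown. KLF5 went from 258 ± 7.68 (SD, n = 3) to 109 ± 22.4 and 116 ± 11.6 (n = 2 each), a log2 fold change of -1.20 (SE 0.107, adjusted p 2.59e-10), and ELF3 fell by 0.88 (SE 0.074, adjusted p 7.47e-11). Of the 18 gastric and intestinal transcription factors listed, 7 were tested in the siRNA arm: 2 rose and 2 fell with SOX2 knockdown (median 0.11), and 1 rose and 3 fell with NKX2-1 knockdown (median -0.02). Over all genes, 27.6% rose and 28.7% fell with SOX2, 18.5% and 21.4% with NKX2-1, and 27.8% and 25.9% with circRMST knockdown. BARX1, a stomach factor, rose with SOX2 knockdown (0.28, adjusted p 0.000111) and fell with NKX2-1 knockdown (-0.28, adjusted p 0.000225). The NKX2-1 knockdown libraries, at 779 ± 108 (SD, n = 4), overlapped si-control, at 937 ± 33.2 (n = 3). With circRMST knockdown 2 of 12 rose, KLF4 and KLF5, and 8 fell (median -2.30), and 5 of the 8 had an excess in shGFP within the 99th percentile of that of silent genes, 38.7. That median turned to 0.20 when a mean of at least 50 was required, which left 6 genes, 2 up and 2 down. For KLF4 the circRMST knockdown libraries, at 362 ± 181 (SD, n = 4), overlapped shGFP, at 187 ± 2.06 (n = 2).

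Intestinal epithelial genes make up the lining that CDX2 specifies. Of 16 listed, 4 were tested in the siRNA arm, and 3 fell and 0 rose with SOX2 knockdown (median -0.59): MUC13 (-0.69, adjusted p 0.000123), TFF3 (-0.69, adjusted p 3.23e-15) and VIL1 (-0.48, adjusted p 0.00279). Of all genes tested, 28.7% fell and 27.6% rose with that knockdown. Whether these genes follow CDX2 was not tested. With NKX2-1 knockdown 2 fell and 1 rose (median -0.21), beside 21.4% and 18.5% of all genes. With circRMST knockdown 2 of 5 rose, MUC13 (1.16) and TFF3 (0.49), and 2 fell, VIL1 and MUC2 (median -0.16, turning to 0.30 under quantile normalization and to 0.49 with a mean of at least 50). Of all genes, 27.8% rose and 25.9% fell there. Of 11 gastric epithelial genes only MUC6 was tested in the siRNA arm, where it rose with SOX2 knockdown (1.49) and gave -0.08 with NKX2-1 knockdown. Both that were tested in the shRNA arm, MUC6 and MUC5AC, fell (median -4.36). Neither reached a mean of 50 in that arm. A gene seen mainly in shGFP passes the filter of 10 through that group, so these falls give no direction for the list.

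Liver genes moved in both directions. Beside their counts, 27.6% of all genes rose and 28.7% fell with SOX2, 18.5% and 21.4% with NKX2-1, and 27.8% and 25.9% with circRMST knockdown. Of 22 liver secreted and metabolic genes, 9 were tested in the siRNA arm, and 3 rose and 2 fell with each siRNA target (median -0.31 for SOX2 and -0.23 for NKX2-1; 0.36 and 0.41 over the 4 genes with a mean of at least 50). F10, a clotting factor, rose with SOX2 knockdown (0.61, adjusted p 0.0173) and with NKX2-1 knockdown (1.05, SE 0.216, adjusted p 0.000289), and AMBP rose with both targets (0.67 and 0.68). SERPINA1, which encodes alpha-1-antitrypsin, went from 2225 ± 55.6 in shGFP to 4385 ± 199 and 3640 ± 18.3 with the circRMST shRNAs (0.84, SE 0.055, adjusted p 8.29e-12), and fell by 0.66 with SOX2 knockdown (SE 0.045, adjusted p 1.42e-12). With circRMST knockdown 3 of 10 rose and 2 fell (median 0.03, over the alternatives with a filter -0.11 to 0.39). Of 14 liver-enriched transcription factors, 6 were tested in the siRNA arm: 1 rose and 0 fell with SOX2 knockdown (median 0.22), and 1 rose and 1 fell with NKX2-1 knockdown (median 0.13). With circRMST knockdown 1 of 7 rose, CEBPA, and 4 fell, TBX3 among them (-0.87, adjusted p 1.51e-09; median of the 7 -0.87). For 1 of the 4 the excess in shGFP lay within the 99th percentile of that of silent genes, and with a mean of at least 50, 4 genes were left, 1 up and 1 down, with a median of 0.18.

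The endocrine factors of pancreas and gut mostly fell with circRMST knockdown and were divided with the siRNAs. Of 20 listed, 13 were tested in the shRNA arm, and 9 fell and 1 rose (median -1.16), beside 25.9% and 27.8% of all genes. For 8 of the 9 the excess in shGFP was above the 99th percentile of that of silent genes. INSM1 (-1.33, SE 0.062, adjusted p 2.04e-14) and NKX2-2 (-1.17, SE 0.130, adjusted p 6.82e-08) were among them. Such an excess can itself carry a gene over the filter of 10, so it gives no direction for the list. Over the alternatives other than no filter, 6 to 9 fell and 0 to 1 rose (median -1.30 to -0.97). In the siRNA arm 12 were tested: 4 rose and 4 fell with SOX2 knockdown (median 0.0006), and 4 rose and 2 fell with NKX2-1 knockdown (median 0.02), and both medians took either sign over the alternatives (-0.035 to 0.156 and -0.012 to 0.093). Over all genes, 27.6% rose and 28.7% fell with SOX2 knockdown, and 18.5% and 21.4% with NKX2-1 knockdown. NKX2-2 rose with both, by 1.16 and 0.72. Of 10 pancreatic islet and acinar genes only the hormone SST was tested in the siRNA arm. SST went from 21.4 ± 7.12 (SD, n = 3) in si-control to 109 ± 2.23 and 141 ± 9.14 with the SOX2 siRNAs, a rise of 2.52 (SE 0.215, adjusted p 9.62e-11), and it stood at 88.2 ± 5.94 and 8.94 ± 3.07 with the NKX2-1 siRNAs, on opposite sides of the control.

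Of 14 definitive endoderm genes, which mark the earliest endoderm, 6 were tested in the shRNA arm: CXCR4 rose (0.30, adjusted p 0.0423) and 4 fell (median -3.63), of which only CER1 had an excess in shGFP above the 99th percentile of that of silent genes, at 171 ± 7.19 in shGFP and 2.14 ± 2.04 (n = 4) in the knockdowns. Among siRNA libraries 3 were tested. CER1, a secreted inhibitor of Nodal and BMP signals, chosen in the siRNA arm after its values were seen, rose with NKX2-1 knockdown (3.22, SE 0.274, adjusted p 2.6e-10), from 9.40 ± 0.822 (n = 3) to 83.6 ± 2.08 and 109 ± 7.99 (n = 2 each), and gave 0.15 with SOX2 knockdown (adjusted p 0.659). SHISA2 and CXCR4 fell with both targets, by 1.14 and 0.63 with SOX2 knockdown (median -0.63) and by 0.67 and 0.31 with NKX2-1 knockdown (median -0.31). Of 20 airway and lung transcription factors, 12 were tested in the siRNA arm: 5 rose and 5 fell with SOX2 knockdown (median 0.11), and 3 rose and 3 fell with NKX2-1 knockdown (median 0.08). Under circRMST knockdown 3 of 17 rose and 9 fell (median -0.77), and 5 of the 9 had an excess in shGFP within the 99th percentile of that of silent genes. Requiring a mean of at least 50 left 8 genes, 3 up and 2 down, with a median of 0.18. The listed genes included FOXP2, up by 1.54 (SE 0.056, adjusted p 3.26e-16), and ID2, down at -1.95 (SE 0.064, adjusted p 5.39e-17). Beside the counts of both lists, 27.8% of all genes rose and 25.9% fell with circRMST, 27.6% and 28.7% with SOX2, and 18.5% and 21.4% with NKX2-1 knockdown.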

How the data were processed

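RNA sequencing of 17 SHP77 libraries was analysed, in groups named by the reagent in the labels. The submitters' processing notes name cutadapt 2.5, STAR 2.5.2b, DESeq2 and hg38 as the authors' tools and build. The DESeq2 version, the annotation, the counting tool and its use of strand are not given in the sources used here. The deposited signal was a DESeq2-normalized count per gene, in a separate table for each arm. Per the labels' protocols, the shRNA arm used a stranded total RNA kit with 1 µg of RNA and the siRNA arm TruSeq RNA V2, a poly(A) kit that keeps no strand, with 500 ng. Values were whole multiples of 1 step per library (100% whole within 0.05 reads), so whole reads were recovered. Non-human rows (55 and 38) and chromosome Y copies of pseudoautosomal genes (7 and 11) were left out, and 98.5% of gene IDs had a symbol. Replicates were no copies: chi-square over degrees of freedom was 5.36 to 6.02 in the shRNA arm and 1.52 to 5.78 in the siRNA arm.

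The main test was limma 3.58.1 (R 4.3.3) on log2 values after adding a pseudocount of 1, with group means, all libraries of a table and a trended eBayes, over genes with a mean of at least 10 (19068 and 16750). This scale understates changes of low genes. A gene present only in shGFP could pass the filter through that group alone, and could then only fall with circRMST knockdown. The value of a knockdown averages its 2 reagents against the control. Tests were two-sided, with Benjamini-Hochberg adjustment over all genes and a threshold of 0.05. edgeR 4.0.16 and DESeq2 1.42.0 were run on the recovered reads as alternatives, and the fits were tested on simulated data.

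The members and the 12 gene lists (158 genes, some in more than 1 list) were chosen with earlier results of these data known. Named were all members, the targeted genes, genes next to or over a member, up to 3 genes per list that passed with a mean of at least 50 and the largest change, and the 3 genes most like each member. MUC2, MUC6 and MUC5AC fall outside that rule and were named because so few genes of their lists passed. Some results for listed genes are not reported here. Levels were not compared between genes, since transcript lengths were not used here.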

Additional observations from a re-analysis of the deposited data

Results flagged for a closer look

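The reagents of a knockdown were compared with each other for each factor tested, in limma with adjustment over all genes. Of 23 such differences, 9 passed, where 19.1% of all genes passed between the circRMST shRNAs, 18.5% between the SOX2 siRNAs and 26.5% between the NKX2-1 siRNAs.

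Between circRMST shRNA 1 and shRNA 2, PDX1 was higher with the first by 1.08 (SE 0.242, adjusted p 0.00237) and CDX2 by 0.67 (SE 0.146, adjusted p 0.00189), while ONECUT2 differed by -0.48 (SE 0.061, adjusted p 3.95e-06). Both libraries of each shRNA lay apart from both of the other for these 3 factors. The same held for FOXA1, FOXA2, FOXA3 and PROX1, whose differences did not pass. How many of all genes were separated in this way was not counted.

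Between SOX2 siRNA 1 and siRNA 2, the differences were 0.18 for PROX1 (SE 0.057, adjusted p 0.026), -0.43 for CDX2 (SE 0.105, adjusted p 0.0041) and -0.24 for FOXA1 (SE 0.056, adjusted p 0.00302). CDX2 was thus lowest with siRNA 1, where SOX2 was at 389 and 396 normalized counts against 439 and 466 with siRNA 2.

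Between NKX2-1 siRNA 1 and siRNA 2, the differences were 0.24 for FOXA1 (SE 0.056, adjusted p 0.00191), -0.42 for ONECUT2 (SE 0.067, adjusted p 2.48e-05) and 0.68 for FOXA3 (SE 0.233, adjusted p 0.0299). NKX2-1 was at 959 and 1070 with siRNA 1 and at 836 and 796 with siRNA 2. The part of the targets' own levels in these differences was not tested.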

How the results depend on the processing

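Over 31 comparisons of a factor between knockdown and control or between knockdowns, 555 alternative values were computed: 509 kept direction and side of the threshold, 25 no longer passed, 15 newly passed and 6 changed sign. In 19 comparisons nothing changed under any alternative run. Sign changes touched only values that had not passed: FOXA3 with circRMST knockdown under quantile normalization (0.18), PDX1 with circRMST knockdown without shGFP replicate 2 (0.047; range over libraries left out -0.31 to 0.047), and FOXA3 with NKX2-1 knockdown under equal library totals (0.0082), under the replicate block (0.071) and without si-control replicate 3 (0.071) or NKX2-1 siRNA 2 replicate 2 (0.096; range over libraries left out -0.20 to 0.096). CDX2 with NKX2-1 knockdown passed neither with no filter (adjusted p 0.0625) nor with equal totals (0.0600), over a range of 0.00111 to 0.114, and ONECUT2 did not pass under the same settings (0.0537 and 0.116, range 0.00266 to 0.136). FOXA2 with NKX2-1 knockdown passed under 8 alternatives (range 0.00379 to 0.180). Over the alternatives other than no filter, the listed genes that fell with circRMST knockdown numbered 2 to 8 for gastric and intestinal, 2 to 10 for airway and lung, 1 to 4 for liver-enriched factors and 1 to 5 for definitive endoderm genes.

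Genes lower with circRMST knockdown numbered 10409 with no filter on low values, against 4936, with 41686 genes tested. Equal library totals shifted the median of all genes by -0.14 in that comparison, giving 3636 higher and 6513 lower, and equal totals without mitochondrial and 7S genes, an alternative chosen after seeing the data, gave 4563 and 5480. Equal totals gave 4224 higher and 2643 lower for NKX2-1 knockdown, and 3716 and 5469 between the knockdowns.

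Same-numbered replicates did not deviate together (r -0.109 to 0.047), so the numbers do not pair the libraries. With the replicate block, 5236 genes were higher and 4891 lower with circRMST knockdown, 4078 and 4358 with SOX2 knockdown, 2421 and 2980 with NKX2-1 knockdown, and 4517 and 4570 between them; HNF4A then passed with SOX2 knockdown (0.87, adjusted p 0.0456).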
